A study of Homo sapiens with 12 samples.

Results

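The LINC genes are long intergenic non-coding RNAs that carry a serial number in place of a functional name. They were taken as every gene whose name begins with LINC and a digit in the authors' deposited tables of m6A windows, which gave 272 of 16417 gene names. The tables come from NOMO-1, a human acute myeloid leukaemia cell line of monocytic type, in which the RNA methyltransferase METTL16 had been knocked out before N6-methyladenosine (m6A) was mapped along poly(A) RNA. The groups were cells with guide sgMETTL16-1, cells with guide sgMETTL16-2, and cells with the control guide sgNS, all grown with puromycin at 2 µg per ml. Each guide had 2 input libraries and 2 libraries immunoprecipitated (IP) with an m6A antibody, 12 in all. The labels do not say whether a guide was a clone or a pool, nor whether replicate numbers were separate cultures. The authors deposited 4 tables, 1 per knockout guide and replicate number, each comparing the knockout with sgNS. The tables hold no value per library, so depth is unknown and single values carry no replicate error. Both tables of 1 replicate number may share the same sgNS libraries, so likeness between them is not given as a result.

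Each row describes 1 transcript window by its fold enrichment (IP over input) and by the log2 fold change that compares knockout with sgNS. A window is called enriched here when the authors' FDR of IP over input was under 0.05. It is called lower or higher when their FDR of the difference was under 0.05. Negative log2 fold changes are taken to mean less m6A after knockout, as such software usually codes them, although the tables do not say so. All 10 myeloid marker genes looked for had windows in every one of the authors' deposited tables. The tables hold no expression level, so the marker check goes no further than whether a gene was listed.

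m6A on polyadenylated RNA is written mainly by the METTL3 and METTL14 complex at short sequences around a central GGAC. METTL16 is a separate enzyme, best known for methylating the U6 small nuclear RNA and hairpins of the MAT2A messenger RNA at a TACAGAGAA-like sequence. Long non-coding RNAs can carry m6A from either source. Many are transcribed next to protein-coding genes, and some names first given as LINC were later moved to genes that encode very short proteins.

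In RefSeq (GRCh38.p14), 220 of the 272 names were current symbols, 219 of them of lncRNA genes and 1 of a pseudogene. The other 52 were older symbols, of which 18 now belong to protein-coding genes, 32 to lncRNA genes under another name and 2 to pseudogenes. Among the 32, 14 are now named as divergent transcripts and 4 as antisense transcripts of a neighbour. The genomic span of a LINC gene had a median of 9278 bases, against 25027 bases over all listed genes with RefSeq ends. Of the 272, 156 had a window in all 4 tables and 43 in a single table. A member had a median of 6 windows over the 4 tables together, and between 1 and 77.

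Sequence was at hand for the 5′ ends of a few LINC RNAs, those that lie in a RefSeq promoter entry (GRCh38.p14), and it is shown here because several of the enriched windows begin there. Capitals mark the motif GGACA and its forms that end in C (GGACC) or in T (GGACT), each searched on the RNA's strand and on the other strand. All 5 sequences are given as the RNA's strand reads.
LINC00667, chr18:5238100-5238279, plus strand: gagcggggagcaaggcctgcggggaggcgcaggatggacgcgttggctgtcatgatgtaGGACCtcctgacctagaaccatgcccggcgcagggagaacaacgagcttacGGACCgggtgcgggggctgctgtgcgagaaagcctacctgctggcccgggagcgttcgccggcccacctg
LINC01268, chr6:113873155-113873347, minus strand: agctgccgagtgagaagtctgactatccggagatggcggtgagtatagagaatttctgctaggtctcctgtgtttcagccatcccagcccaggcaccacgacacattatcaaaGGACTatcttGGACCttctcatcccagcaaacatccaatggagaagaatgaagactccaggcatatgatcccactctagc
LINC00847, chr5:180830957-180831006, plus strand: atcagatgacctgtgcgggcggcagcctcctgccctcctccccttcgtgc
LINC00426, chr13:30373865-30373914, minus strand: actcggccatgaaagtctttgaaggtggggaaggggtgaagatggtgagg
LINC01578, chr15:92882843-92882892, plus strand: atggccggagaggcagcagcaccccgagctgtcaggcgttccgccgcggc
The LINC00667 stretch held 2 matches and the LINC01268 stretch 2, and the other 3, of 50 bases each, held 0. Stretches of enriched windows that are not printed, 34 bases of LINC00339, 50 of LINC00638 and a further 133 of LINC00847, held 0 as well. Of the 35097 promoter entries, 41.4% held a match in their last 180 bases, 43.6% in their last 193 bases, 32.6% in their last 133 bases, 14.5% in their last 50 bases and 10.2% in their last 34 bases. An entry runs from 250 bases before a gene start to 50 bases after it, so the longer lengths take in bases before the start. The stretches of 180, 193 and 133 bases came from entries of other genes on the opposite strand, so for them these shares cover an unlike region. The sequence TACAGAGAA had 0 matches in the 5 stretches on either strand. A match describes these letters only.

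Windows on LINC genes were seldom enriched for m6A. In the sgMETTL16-1 tables deposited by the authors, 21 of 683 LINC windows (3.07%) were enriched in replicate 1, against 8.1% of all windows, and 18 of 623 (2.89%) in replicate 2, against 11.9% of all windows. In the authors' deposited sgMETTL16-2 tables the counts were 17 of 673 (2.53%) in replicate 1, against 10.2% of all windows, and 17 of 598 (2.84%) in replicate 2, against 12.3% of all windows. Exact 95% binomial intervals of the LINC shares reached no higher than 4.66%, 4.53%, 4.01% and 4.51%, and cover counting error only. They treat windows as independent, although several can lie on 1 gene, so they are too narrow to serve as a test. The LINC share was below that of all windows in each of the 4 tables. Enriched LINC windows lay on 16 and 14 genes in the sgMETTL16-1 tables and on 13 and 12 genes in the sgMETTL16-2 tables.

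The unenriched majority had large but uncertain values. The median fold enrichment of LINC windows in the authors' deposited tables was 2.23, 2.54, 2.28 and 2.48 (sgMETTL16-1 replicates 1 and 2, then sgMETTL16-2 replicates 1 and 2), against 1.67, 1.74, 1.77 and 1.70 over all windows. In the same order, between 67.6% and 75.9% of LINC windows had a deposited FDR of IP over input of exactly 1, against 42.8% to 49.5% of all windows. The median absolute log2 fold change of LINC windows in the authors' deposited tables was 0.85, 0.72, 1.00 and 0.80, against 0.44, 0.48, 0.57 and 0.47 over all windows. A log2 fold change of exactly 0 was listed for 18.1% to 23.8% of LINC windows, against 8.0% to 8.77% of all windows of the authors' deposited tables. The median log2 fold change itself was 0 for LINC windows and for all windows in each table. Reads behind each window were not at hand, so the part of depth in these wide spreads was not tested.

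**Figure D1:**
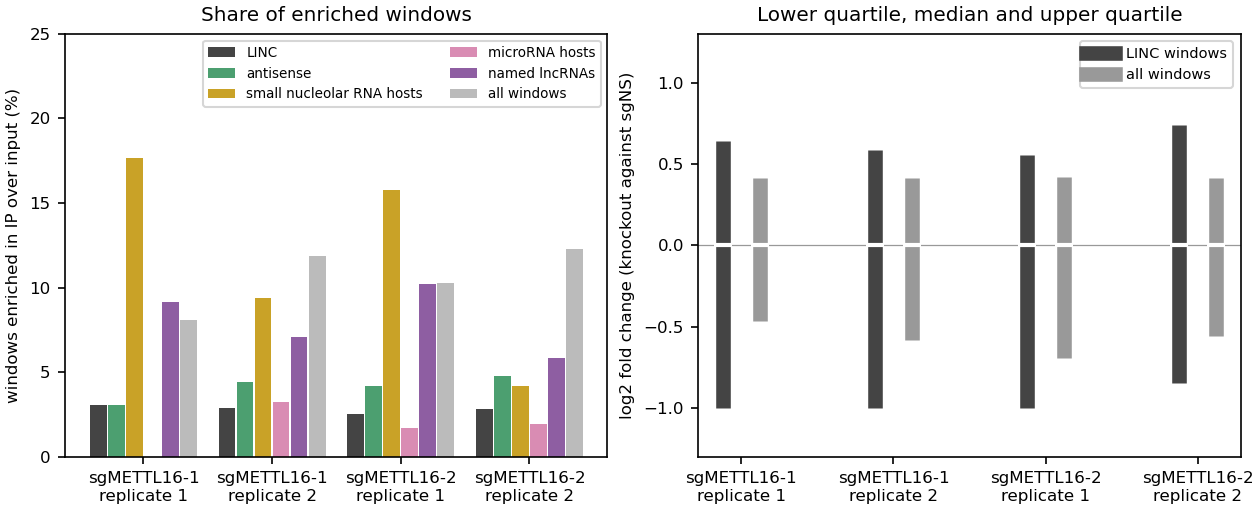
Left, share of windows enriched in IP over input (percent) in each of the 4 tables for LINC genes, 4 other classes of non-coding RNA and all windows. Right, lower quartile to upper quartile (bars) and median (white line) of the log2 fold change of knockout over sgNS for LINC windows and all windows; the LINC share stays between 2.53% and 3.07% while that of all windows is between 8.1% and 12.3%, and the LINC bars are the longer ones in each table.

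Other classes of non-coding RNA gave context for the low share. Antisense genes (567 names ending in AS, with or without a final digit) were close to the LINC genes, with 3.08%, 4.45%, 4.18% and 4.76% of windows enriched in the authors' deposited tables. The 18 small nucleolar RNA host genes had 17.6%, 9.38%, 15.8% and 4.17%, from 24 to 38 windows a table. The 16 microRNA host genes had 0%, 3.23%, 1.69% and 1.96%, from 51 to 63 windows a table. A set of 14 well-known long non-coding RNAs, among them MALAT1 and NEAT1, had 9.14%, 7.05%, 10.2% and 5.85% of windows enriched in the authors' deposited tables. In that set 4, 2, 9 and 2 windows were called lower (2.03%, 1.28%, 4.59% and 1.17%) and 0 were called higher. Of all windows, 0.281%, 0.167%, 0.965% and 0.149% were called lower. The calls of the set all lay on MALAT1, NEAT1 and TUG1, so they do not describe its other genes. The small nucleolar RNA hosts also had lower calls alone, on 2, 1, 4 and 1 windows (5.88%, 3.125%, 10.5% and 4.17%). Antisense genes had 0, 1, 3 and 0 lower calls and 0, 0, 5 and 0 higher ones (0%, 0.0741%, 0.567% and 0% called), and microRNA hosts had 0 calls.

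Called LINC windows were few. The authors' deposited table for sgMETTL16-1 replicate 1 called 2 of them, both lower (0.293% of LINC windows), while it called 0.355% of all windows (0.281% lower and 0.0743% higher). For replicate 2 of that guide their deposited table called 1, higher (0.161%), while 0.749% of all windows were called (0.167% lower and 0.583% higher). For sgMETTL16-2 replicate 1 the authors' deposited table called 1, lower (0.149%), while 1.84% of all windows were called (0.965% lower and 0.875% higher). For replicate 2 of that guide 0 were called, while 0.734% of all windows were (0.149% lower and 0.586% higher), and 10 LINC windows had an unadjusted p under 0.05 in the authors' deposited table. The share of LINC windows called was below that of all windows in each table, but it rested on 0 to 2 calls and is not read as a trait. For sgMETTL16-1 replicate 1 it was near that of all windows. There the LINC share called lower, 0.293%, was slightly above the 0.281% of all windows. The 4 calls fell on 2 genes, LINC01578 and LINC00926, and all 4 windows were enriched. Among enriched LINC windows alone, the share called was 9.52% and 5.56% in the authors' deposited sgMETTL16-1 tables, against 3.59% and 5.41% of all enriched windows. For sgMETTL16-2 it was 5.88% and 0% in the authors' deposited tables, against 11.8% and 5.22% of all enriched windows. These LINC shares rest on 2, 1, 1 and 0 calls. At an unadjusted p under 0.05, the authors' deposited tables held 11, 7, 11 and 10 LINC windows (1.61%, 1.12%, 1.63% and 1.67%), against 4.85%, 5.81%, 8.2% and 6.15% of all windows. Of these, 10 of 11, 3 of 7, 10 of 11 and 6 of 10 were negative, against 2324 of 3853, 1437 of 4147, 3005 of 6216 and 1507 of 4307 over all windows.

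LINC01578, now named CHASERR, is a lncRNA transcribed upstream of the chromatin remodeller gene CHD2, whose expression it is known to restrain in cis. RefSeq places it at chr15:92882843-92898747 on the plus strand, and CHD2 begins 1577 bases beyond its 3′ end. The called window lay near that 3′ end. For sgMETTL16-1 replicate 1 it spanned chr15:92897804-92898157 in the authors' deposited table. Its fold enrichment there was 2.13 (FDR 0.0012) and its log2 fold change -1.0 (FDR of the difference 0.00501), as deposited by the authors. For sgMETTL16-2 replicate 1 it spanned chr15:92897774-92898157 in the authors' deposited table. Its fold enrichment there was 2.28 (FDR 5.37e-06) and its log2 fold change -1.07 (FDR of the difference 0.0224), as deposited by the authors. These tables may share controls, so the values are set side by side only. The replicate 2 tables did not carry the call. A shorter window, chr15:92897951-92898069, had -0.68 (FDR 0.658) on the log2 scale in the authors' deposited sgMETTL16-1 replicate 2 table and was not enriched. The authors' deposited sgMETTL16-2 replicate 2 table listed no window there. With a two-sided p the FDR of the LINC01578 window was 0.0132 for sgMETTL16-1 and 0.0614 for sgMETTL16-2 in the replicate 1 tables.

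LINC01578 also had windows at its 5′ end, where the 50 bases printed above begin. The authors' deposited tables gave these log2 fold changes of 0.74 (sgMETTL16-1 replicate 2), 0.68 (sgMETTL16-2 replicate 1) and 0.15 (sgMETTL16-2 replicate 2), and 0 of them were enriched. The 5′ windows had FDRs of the difference of 0.65 to 0.659 in the authors' deposited tables. The remaining LINC01578 windows, none of them enriched, had values of both signs. The authors' deposited replicate 1 tables gave -0.10 (sgMETTL16-1) and -0.36 (sgMETTL16-2) at chr15:92885525-92886197. Beyond the called window, up to the 3′ end, they gave 1.26 for sgMETTL16-1, and 1.58 and -1.58 for sgMETTL16-2, as deposited by the authors.

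LINC00926 (chr15:57300365-57307769, plus strand, between TCF12 and CGNL1) was the LINC gene with the most significant enrichment, in windows of 2 blocks that cover the first part of the gene. In the authors' deposited sgMETTL16-1 tables its 5′ window had a log2 fold change of -0.40 (FDR 0.000479) in replicate 1 and 0.34 (FDR 0.0123) in replicate 2. The calls of the 2 replicates of this guide were therefore opposite in sign. For sgMETTL16-2 the authors' deposited tables gave the same window log2 fold changes of -0.05 (FDR 0.659) in replicate 1 and 0.11 (FDR 0.65) in replicate 2. Its fold enrichment was 2.77 and 1.86 in the authors' deposited sgMETTL16-1 tables and 3.12 and 1.72 in those of sgMETTL16-2, higher in both replicate 1 tables. The FDR of IP over input of that window in the authors' deposited tables was between 2e-48 and 1.58e-17. Over all genes, 20 matched windows were called in opposite directions in the replicates of sgMETTL16-1, and LINC00926 was the 1 LINC window among them. After subtracting from each table its enriched windows' median, the higher call was lost (log2 fold change 0.21, FDR 1) and the lower call kept (log2 fold change -0.36, FDR 0.00895).

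The 3′ window of LINC00926, in the last part of the gene, was enriched in every table too. Its log2 fold changes were -0.18 and -0.09 in the authors' deposited sgMETTL16-1 tables and -0.03 and 0.02 in those of sgMETTL16-2. None of these was called, and the largest difference lay again in the sgMETTL16-1 replicate 1 table.

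**Figure D2:**
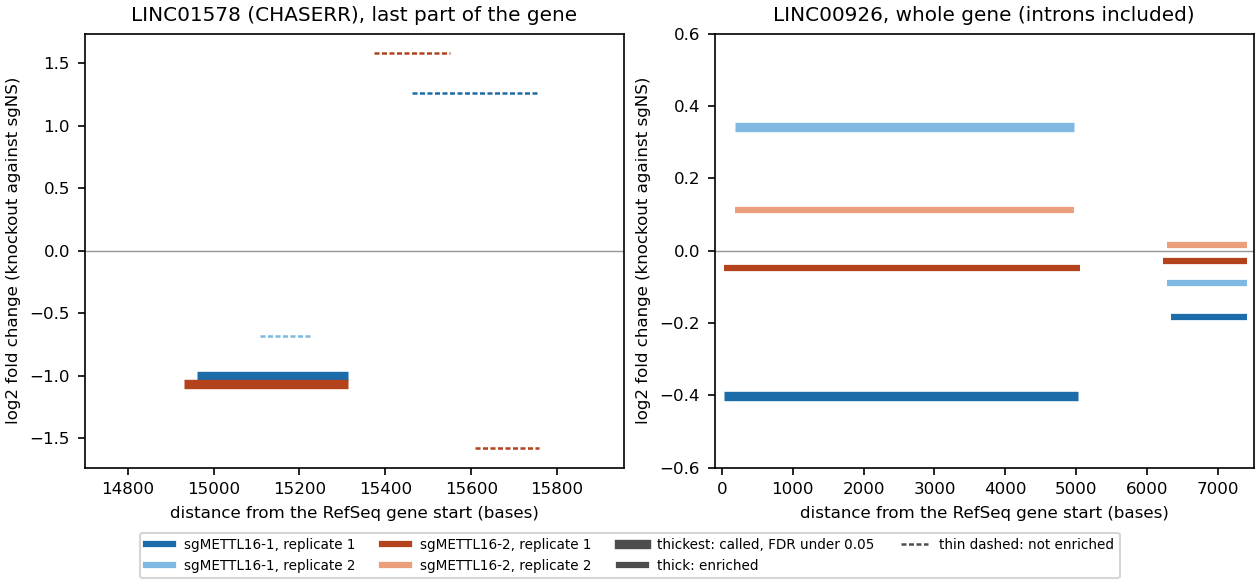
Log2 fold change of knockout over sgNS (vertical) of each window by its distance from the gene start (horizontal, bases), for the last part of LINC01578 and the whole of LINC00926, with 1 colour per table. The called 3′ windows of LINC01578 lie at -1.0 and -1.07 in the replicate 1 tables, and the 5′ window of LINC00926 is called at -0.40 and at 0.34 in the replicates of sgMETTL16-1.

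No LINC window was called the same way in both replicates of either guide, and none in all 4 tables. That is 0 of 148 matched LINC windows for sgMETTL16-1 and 0 of 161 for sgMETTL16-2. Over all genes such calls were few too, with 9 lower and 4 higher of 20031 matched windows for sgMETTL16-1, and 13 lower and 112 higher of 21192 for sgMETTL16-2. Windows of a pair of tables were matched where the overlap made up 0.5 or more of each window's bases. Of 121 LINC windows matched between the sgMETTL16-1 replicates with a nonzero value in both, 73 (60.3%) had the same sign, against 9696 of 18449 (52.6%) over all windows. For sgMETTL16-2 the counts were 66 of 126 (52.4%) for LINC windows, against 11614 of 19559 (59.4%) over all windows. The LINC share was the higher one for sgMETTL16-1 and the lower one for sgMETTL16-2, and neither difference was tested.

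Over the 4 tables together, 25 LINC genes had an enriched window. Among them, 6 had one in all 4 tables (LINC00339, LINC00493, LINC00667, LINC00847, LINC00926 and LINC00963), 3 in 3 tables (LINC00426, LINC00938 and LINC01268), 6 in 2 tables and 10 in 1 table. Among enriched LINC windows, 16 of 21, 11 of 18, 11 of 17 and 6 of 17 had a negative log2 fold change, with medians of -0.27, -0.07, -0.13 and 0.03 in the authors' deposited tables. Among all enriched windows 56.0%, 32.7%, 36.6% and 32.5% were negative, with medians of -0.04, 0.13, 0.13 and 0.14. The LINC median was the lower one in each table, from 17 to 21 windows on few genes, and the difference was not tested.

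**Figure D3:**
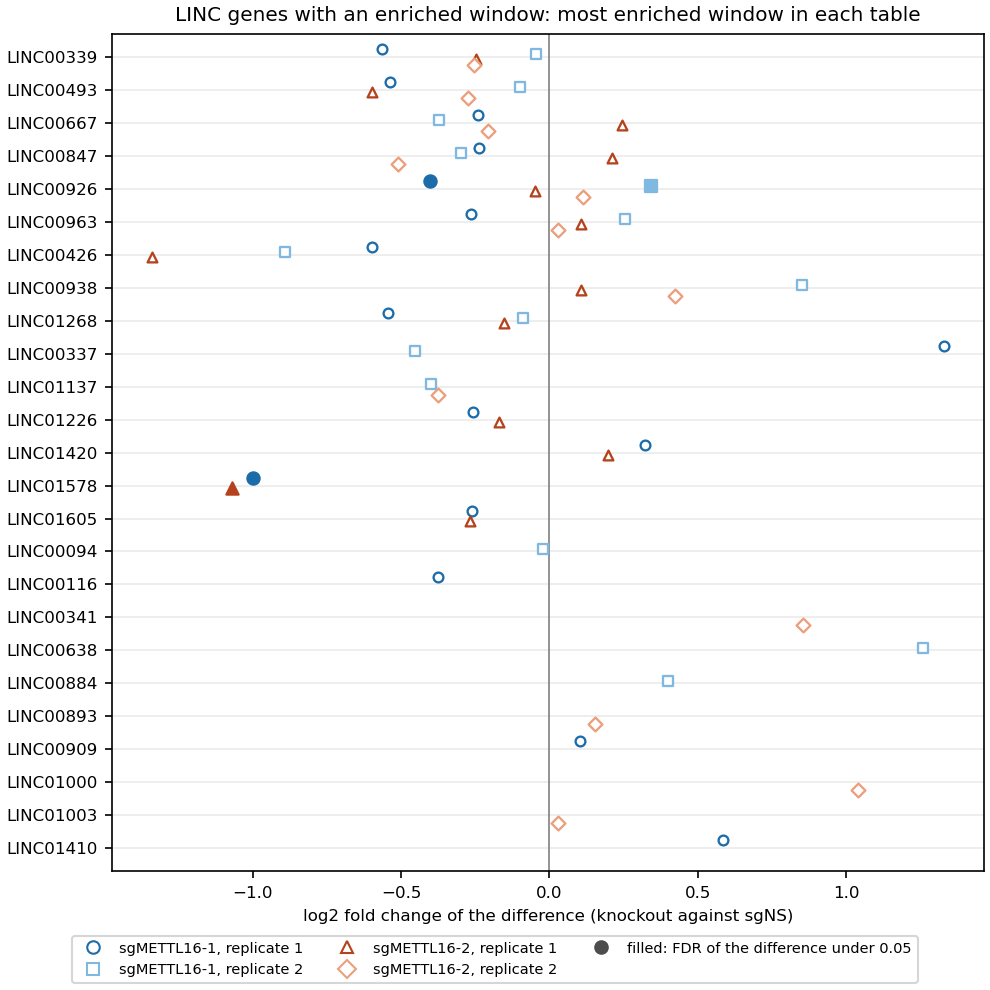
Log2 fold change of knockout over sgNS (horizontal) of 1 window of each of the 25 LINC genes with an enriched window, with 1 symbol per table and filled symbols for FDRs of the difference under 0.05. The window shown is the one with the lowest FDR of IP over input, which need not have the highest fold enrichment. A gene has a symbol only in tables where it was enriched; LINC00493 and LINC00339 lie below 0 in all 4 tables, and the filled symbols belong to LINC01578 and LINC00926.

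LINC00493 is an older name of SMIM26, which encodes a small integral membrane protein of mitochondria. Its enriched window ended at chr20:18569559, close to the 3′ end of the gene, in every table. The fold enrichment of the LINC00493 window was 2.47 and 6.76 in the authors' deposited sgMETTL16-1 tables, and 2.48 and 10.7 in those of sgMETTL16-2. Its log2 fold change was -0.54 (FDR 0.299) and -0.10 (FDR 0.658) in the authors' deposited sgMETTL16-1 tables. In those of sgMETTL16-2, also deposited by the authors, it was -0.60 (FDR 0.106) and -0.28 (FDR 0.65). All 4 values were negative and none passed the threshold, and the 2 replicate 1 tables had the larger differences.

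LINC00339 lies upstream of CDC42, a gene for a small GTPase. Its enriched window, of 2 blocks, began 148 bases from the 5′ end and reached to within 533 bases of the 3′ end. The authors' deposited tables gave that window log2 fold changes of -0.56 and -0.05 with sgMETTL16-1 and of -0.25 and -0.25 with sgMETTL16-2. These values were all negative, with FDRs of the difference between 0.65 and 0.659. LINC01268, now MROCKI, lies between MARCKS and HDAC2 and is known to act on MARCKS expression. The LINC01268 window at its 5′ end, which overlaps the 193 bases printed above, was given log2 fold changes by the authors' deposited tables of -0.54 and -0.09 with sgMETTL16-1 and of -0.15 and -0.61 with sgMETTL16-2. The 3′ window of LINC01268 in the authors' deposited sgMETTL16-2 replicate 1 table had -0.98 with an FDR of 0.0537, just above the threshold, and it was not enriched. In that of sgMETTL16-1 replicate 1 the 3′ window was enriched (fold enrichment 2.23, FDR 0.0316) and had -0.515 (FDR of the difference 0.655), as deposited by the authors.

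LINC00426 had an enriched window at its 3′ end in 3 tables. Its log2 fold change there was -0.60 and -0.89 in the authors' deposited sgMETTL16-1 tables and -1.34 and -0.70 in those of sgMETTL16-2, the last without enrichment. Each of these 4 values was negative, and the lowest FDR of the difference among them was 0.327. LINC00963 had a 3′ window with log2 fold changes of -0.27 and 0.25 for sgMETTL16-1 and of 0.11 and 0.03 for sgMETTL16-2 in the authors' deposited tables. The signs of LINC00963 differed between the replicates of sgMETTL16-1. LINC00938 had log2 fold changes of 0.85 in the authors' deposited sgMETTL16-1 replicate 2 table, and of 0.11 and 0.42 in those of sgMETTL16-2, each in its enriched window. These windows had 506, 507 and 179 bases. In the authors' deposited sgMETTL16-1 replicate 1 table the LINC00938 window at chr12:45726939-45727445 was not enriched (FDR of IP over input 0.0776) and had 0.001.

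Within LINC00847 and LINC00667 the first window and the one after it often differed in sign. The LINC00847 window that begins at the gene start, with the 50 bases printed above, had log2 fold changes of 0.53 in the authors' deposited sgMETTL16-1 replicate 2 table, and of 0.21 and 0.54 in those of sgMETTL16-2. Its later windows had -0.30 in the authors' deposited sgMETTL16-1 replicate 2 table, -0.31 in that of sgMETTL16-2 replicate 1 and -0.51 (FDR 0.22) in that of sgMETTL16-2 replicate 2. The last LINC00847 window of the authors' deposited sgMETTL16-2 replicate 1 table departed from this, at 0.69. A single long window took in the 5′ end in the authors' deposited sgMETTL16-1 replicate 1 table, with -0.24, and the window after it had -0.43. LINC00847 overlaps HEIH, whose windows lie on the opposite strand. The library kit was stranded per the labels' protocols, and how strand entered the counting is not stated there.

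LINC00667 had windows with folds of up to 2.97, 10.1, 6.08 and 3.31 in the authors' deposited tables, but these were not enriched by FDR. The folds of its enriched windows reached 2.26, 3.10, 2.44 and 2.66 in the authors' deposited tables. Its 5′ window, which overlaps the 180 bases printed above and was enriched in the replicate 2 tables, had log2 fold changes of 0.36 and 0.61 in the authors' deposited sgMETTL16-1 tables and 0.51 in that of sgMETTL16-2 replicate 2. The next window had -0.24, -0.37 and -0.21 in the same 3 of the authors' deposited tables. Both were joined in 1 window, at 0.24, in the authors' deposited sgMETTL16-2 replicate 1 table. Further along LINC00667 the windows were not enriched, and the authors' deposited tables gave them values of both signs, between -2.13 and 3.32. None of the LINC00667 or LINC00847 windows was called, and the difference between neighbouring windows was seen in the values and not tested.

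**Figure D4:**
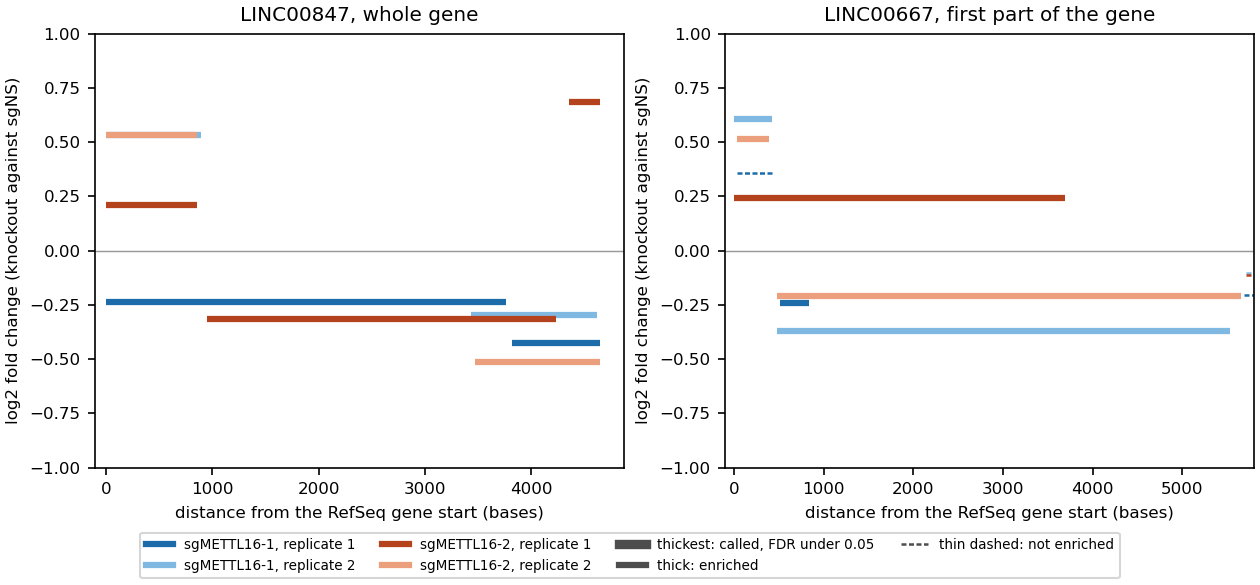
Log2 fold change of knockout over sgNS (vertical) of each window by its distance from the gene start (horizontal, bases) for LINC00847 and for the first part of LINC00667, with 1 colour per table and thick lines for enriched windows. Windows at the gene start lie above 0 except the long LINC00847 window of sgMETTL16-1 replicate 1 at -0.24, and the enriched windows after them lie below 0 except the last LINC00847 window of sgMETTL16-2 replicate 1 at 0.69.

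Enriched LINC windows often lay close to a gene end. Within 1000 bases of the 5′ end lay 8 of 21, 10 of 18, 9 of 17 and 8 of 17 of them, against 14.3%, 15.9%, 17.1% and 17.2% of all enriched windows. Within 1000 bases of the 3′ end lay 12, 10, 8 and 8 of the enriched LINC windows (57.1%, 55.6%, 47.1% and 47.1%), against 35.3%, 30.9%, 32.8% and 30.8% of all enriched windows. Of all LINC windows, enriched or not, 40.2% to 41.9% lay that close to the 3′ end and 22.2% to 26.1% that close to the 5′ end. A window close to both ends, such as that of LINC00339, was counted at each of them. LINC genes are shorter, with 51.8% spanning up to 10000 bases against 26.9% of all genes, and gene length was not matched. By position, the 10 enriched LINC windows near the 5′ end in the sgMETTL16-1 replicate 2 table had a median log2 fold change of 0.37, and the 8 further from it had -0.20. In the other 3 tables the 5′ and further medians were -0.32 and -0.27, -0.05 and -0.22, and 0.07 and 0.03, in the order of tables above. The 5′ windows were not the higher ones in every table.

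The 18 names that now belong to protein-coding genes include several short-protein genes. Among them, 5 had an enriched window in some table, against 20 of the other 254 members, and none had a called window. Besides LINC00493 these 5 were LINC00094, LINC00116, LINC00341 and LINC01420. LINC00116 encodes mitoregulin (MTLN), a short protein of the inner mitochondrial membrane. Its enriched window in the authors' deposited sgMETTL16-1 replicate 1 table had a log2 fold change of -0.38 (FDR 0.655). Without enrichment, its window had 0.60 for sgMETTL16-1 replicate 2, and -0.32 and 0.26 for sgMETTL16-2, so the replicates of each guide differed in sign. LINC01420 encodes NBDY, a short protein that binds the messenger RNA decapping complex. Its enriched windows had 0.32 and 0.20 in the authors' deposited replicate 1 tables of sgMETTL16-1 and sgMETTL16-2. The LINC01420 window of the replicate 2 tables, not enriched, had the opposite sign, with -0.69 for sgMETTL16-1 and -0.19 for sgMETTL16-2. LINC00341, now SYNE3 (nesprin-3, a nuclear envelope protein), had an enriched 3′ window with 0.86 (FDR 0.238) in the authors' deposited sgMETTL16-2 replicate 2 table. The other renamed members had windows without enrichment. One of them, LINC00998, is now SMIM30, a small membrane protein gene, with a fold enrichment of 1.51 to 4.23 in its windows of the authors' deposited tables.

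Among the 5 members with the most windows, 2 had an enriched window. LINC01000 had 77 windows over the 4 tables and was enriched in 2 of the 23 in the sgMETTL16-2 replicate 2 table. The next by number of windows, LINC00476, LINC01128 and LINC00265, had 0 enriched windows in the authors' deposited tables, and LINC00094 had 1.

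Of 36 LINC windows matched between every pair of the 4 tables, 10 had a negative log2 fold change in all 4 (27.8%) and 0 a positive one, and none of the 10 was called. Over all 6879 windows matched in this way, 946 (13.8%) were negative in all 4 and 1341 (19.5%) positive. This count names genes for description, since tables of 1 number may share controls. The lowest means belonged to windows that were never enriched. The matched window of LINC00999, for one, had log2 fold changes of -1.0 and -2.32 in the authors' deposited sgMETTL16-1 tables and -1.58 and -3.32 in those of sgMETTL16-2, with an FDR of IP over input of 1 in each. The authors' unadjusted p of the difference for it was 0.226 to 0.6, and other LINC00999 windows reached 2.32 in both sgMETTL16-2 tables. The authors' deposited tables gave the matched window of LINC00565 values of -1.74 and -1.0 for sgMETTL16-1 and of -1.74 and -1.58 for sgMETTL16-2. Its unadjusted p of the difference, as deposited by the authors, was 0.346 to 0.7. Other LINC00565 windows went the other way, up to 4.46 in the sgMETTL16-1 replicate 1 table and 3.32 in that of sgMETTL16-2 replicate 1. The matched window of LINC00294 had values of -1.32 and -0.83 for sgMETTL16-1 and of -0.93 and -1.53 for sgMETTL16-2, as deposited by the authors. The matched windows of LINC01315 and LINC01128 followed the same pattern with values between -1.58 and -1.0. These windows were picked for their sign, so they do not describe the other windows of the genes. Among the 10, the windows of LINC00493, LINC00339 and LINC01268 were enriched in 3 or 4 tables.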

How the data were processed

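Input and m6A IP libraries of NOMO-1 poly(A) RNA were sequenced. STAR and GRCh38 are named in the submitters' processing notes. Which peak caller, version and annotation were used is not given in the sources used here. In the authors' deposited tables the columns used were, per the file headers, the log2 fold change of the difference, log10 of its p and FDR (listed as a score in 1 table, for its very low values), log10 of p and FDR of IP over input (listed as a score, for the same reason) and the fold enrichment, a ratio. Depth per library is unknown. Deposited starts count from 0 and are printed from 1.

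The 272 members were found by name, and symbols, gene ends and promoters were matched in RefSeq (GRCh38.p14). The members, lists and comparisons were chosen with earlier results of these data known. Genes named were those with a call, those enriched in at least 3 tables (at most 10, by mean highest fold enrichment), 5 each way by mean among matched windows of 1 sign in all 4 tables, 5 with the most windows, and those renamed as protein-coding. Others were chosen after their values were seen.

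Windows were matched at 0.5 of the bases of each; a match over 4 tables needed this for every pair. That reading of the rule replaced a looser one, each table matched to the first alone, after both results were seen, and both are given. Python 3.11.15, pandas 2.3.3, numpy 2.4.6 and SciPy 1.17.1 were used, with steps tested on simulated data. The deposited p of the difference was read as one-sided, and two-sided values doubled it before adjustment. Calls and counts by unadjusted p used the authors' values as deposited. The shift removed the median of each table's enriched windows, with p from a normal approximation. No test across libraries was possible. Part of the check of cell type markers is not reported here.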

Additional observations from a re-analysis of the deposited data

How the results depend on the processing

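Of 36 alternative counts of called LINC windows, 29 stayed within 1.5 times the count reported and 7 moved. Several settings can only lower a count, so the count of 0 for sgMETTL16-2 replicate 2 could not move under them. The 29 are therefore no measure of how stable the calls were. With an FDR of 0.01 the counts for sgMETTL16-1 replicate 2 and sgMETTL16-2 replicate 1 were 0. With a minimum absolute log2 fold change of 1 they were 1 for sgMETTL16-1 replicate 1 and 0 for sgMETTL16-1 replicate 2. For sgMETTL16-1 replicate 2 they were also 0 with a fold enrichment of at least 2 and after the shift. For sgMETTL16-2 replicate 1 the count was 0 with a two-sided p. Asking for a call in 1 table in place of both, by leaving out either replicate, gave 1 to 2 windows for sgMETTL16-1, 0 to 1 for sgMETTL16-2 and 0 to 1 for all 4 tables. At an IP over input FDR of 0.01 the enriched share was 1.46% and 1.12% for sgMETTL16-1, and 2.08% and 1.34% for sgMETTL16-2. Counted by genes, and at the main FDR threshold in place of the stricter one, the share of listed LINC genes with an enriched window was 7.31%, 6.67%, 6.13% and 5.77%. With each table matched to the first alone, an alternative added after seeing the data, 13 of 50 LINC windows were negative in all 4 tables, in place of 10 of 36, and 0 were positive. Adjusting the deposited p again, also added after seeing the data, changed no count of called LINC windows. No paired analysis was possible because the tables hold no value per library. Depth is unknown, and without reads per window the deposited values cannot show which differences were too small to detect.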
